A study of Mus musculus with 6 samples.

Results

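Liver makes most of the plasma proteins of blood clotting, fibrinolysis and complement, and the genes described here are 35 of them, taken from the deposited tables by their gene symbol. The list holds 20 clotting, anticoagulant and fibrinolysis genes and 15 complement genes. Each symbol named exactly 1 of the 23282 genes in the tables. All 35 were among the 14076 genes with enough counts to be tested, so the filter on low counts took none of them away. The question was how their mRNA compared between liver without hepatocyte *Tcf7l2*, which encodes a transcription factor of the Wnt pathway, and wild-type liver.

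Liver RNA was sequenced from 3 *Alb-Cre;Tcf7l2 f/f* mice (knockout) and 3 *Tcf7l2 f/f* mice (wild type), of the strain C57BL/6 by the labels and C57BL/6N in the study's methods. Both genotypes carry *Tcf7l2* alleles floxed at exon 5. The knockout adds Cre recombinase under the albumin promoter, and the study's methods describe the loss as selective for hepatocytes. All 6 mice were 12 weeks old by the labels, were fasted for 24 h and were then given normal chow for 24 h, so both groups were in the refed state. Libraries go by the numbers in their labels, which are 7-2, 7-3 and 8-3 for knockout and 7-2, 8-1 and 8-3 for wild type. The labels do not say that each library is 1 animal, which is taken from the study's statement of 3 mice per group, and the tests measure the spread between these libraries.

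In the clotting cascade, serine proteases made in liver activate each other in turn until thrombin cuts soluble fibrinogen into fibrin, which factor XIII then crosslinks and plasmin later dissolves. Complement works by a similar chain. Mannose-binding lectins with their proteases, C1, or the alternative pathway build convertases that cleave C3, and the last components assemble into a pore in the target membrane. Fibrinogen, C3 and several other members are also acute phase genes, which hepatocytes transcribe more strongly under interleukin-6 and related cytokines.

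The 3 fibrinogen genes, which encode the Aα (*Fga*), Bβ (*Fgb*) and γ (*Fgg*) chains of a single protein, carried the largest fold changes among the 35 members. They lie next to each other on chromosome 3, and their promoters were chosen for display because of those fold changes. Each runs from 250 bases before to 50 bases after the annotated start, 5′ to 3′ along the gene, as given by RefSeq for GRCm38.p6, the build that matches the mm10 of the counts. They stand at chr3:83025903-83026202 on the plus strand (*Fga*), chr3:83049814-83050113 on the minus strand (*Fgb*) and chr3:83007474-83007773 on the plus strand (*Fgg*). Capitals mark every match, on either strand, to CTGGGAA, the core of interleukin-6 response elements, or to GTTAAT, part of the site of the hepatocyte factor HNF1, which reads ATTAAC on the other strand.
Fga: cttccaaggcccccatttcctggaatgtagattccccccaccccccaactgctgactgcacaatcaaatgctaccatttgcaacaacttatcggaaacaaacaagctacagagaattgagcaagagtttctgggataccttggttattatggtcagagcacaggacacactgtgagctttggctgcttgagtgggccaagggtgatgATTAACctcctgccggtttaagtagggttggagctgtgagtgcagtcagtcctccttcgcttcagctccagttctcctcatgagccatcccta
Fgb: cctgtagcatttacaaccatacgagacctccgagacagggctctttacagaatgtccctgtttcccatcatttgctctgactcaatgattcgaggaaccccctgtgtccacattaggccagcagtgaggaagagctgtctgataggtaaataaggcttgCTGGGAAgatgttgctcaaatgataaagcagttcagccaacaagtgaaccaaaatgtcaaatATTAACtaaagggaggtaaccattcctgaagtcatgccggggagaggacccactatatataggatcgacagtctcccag
Fgg: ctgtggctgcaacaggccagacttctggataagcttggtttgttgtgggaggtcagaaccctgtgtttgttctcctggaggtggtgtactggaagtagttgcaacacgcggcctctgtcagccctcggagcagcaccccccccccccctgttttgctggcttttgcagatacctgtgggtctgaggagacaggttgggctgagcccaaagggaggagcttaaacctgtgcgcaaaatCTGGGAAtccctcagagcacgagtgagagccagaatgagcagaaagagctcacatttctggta

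CTGGGAA stood in the *Fgb* promoter from position -91 and in the *Fgg* promoter from position -13 relative to the annotated start, and had no match in the *Fga* window. GTTAAT matched on the minus strand from -43 in *Fga* and from -29 in *Fgb*. RefSeq held a promoter for 27 of the 35 members, and CTGGGAA was in 5 of them (*F9*, *Fgb*, *Fgg*, *Masp2* and *C6*), against 11.1% of all 32851 promoters in that table. GTTAAT was in 7 of the 27 (*F2*, *Fga*, *Fgb*, *F13b*, *C4bp*, *C8a* and *C8b*), against 7.10% of all promoters. CTTTGAT, the core that TCF and LEF factors bind, was in 2 of the 27 (*Serpind1* and *Masp2*), against 3.73% of all promoters. The motifs were searched on both strands, and their matches did not overlap. A match of letters describes the window and shows no binding.

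*Tcf7l2* itself had 3.31, 2.74 and 3.33 CPM in knockout libraries 7-2, 7-3 and 8-3, against 4.88, 6.13 and 6.85 CPM in wild-type libraries 7-2, 8-1 and 8-3, where CPM are counts scaled to the TMM-adjusted size of each library. Every knockout library lay below every wild-type library (log2 fold change −0.93, SE 0.19, adjusted *p*=0.0856 by edgeR's quasi-likelihood test and 0.00283 by DESeq2). The counts cover the whole gene, of which the knockout removes 1 exon in hepatocytes. Of 8 pericentral hepatocyte genes, a group known to depend on Wnt signals, 6 were called lower in knockout liver, and of 7 hepatocyte markers, among them *Alb* and *Apoa1*, 0 were called by edgeR or DESeq2 or had an unadjusted *p* under 0.05. The libraries held 60619938 to 133384586 counts. Major urinary protein genes took 23.5% to 35.8% of the counts in knockout libraries and 38.9% to 64.4% in wild-type libraries, so that scaling by library size alone put the all-gene median of the log2 fold change at 0.61, against −0.017 with the TMM factors used here. In whole liver, fewer cells of a type and less RNA per cell cannot be told apart.

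None of the 35 members passed an adjusted *p* of 0.05 in edgeR, with 0 higher and 0 lower in knockout liver, where 0.071% of all tested genes were called higher and 0.377% lower. Before adjustment, 3 members with a *p* under 0.05 were higher (*F5*, *F13b* and *C9*), against 6.7% of all genes, and 5 were lower (*Fga*, *Fgb*, *Fgg*, *Mbl1* and *C6*), against 6.76% of all genes. DESeq2 called 1 member higher (*C9*), where it called 1.38% of all genes, and 3 lower (*Fga*, *Fgb* and *Fgg*), where it called 1.7% of all genes. The 3 knockout libraries all lay above the 3 wild-type libraries in 5 members (14.3%; *F5*, *F13b*, *Cfi*, *C8b* and *C9*), and so did 10.2% of all genes. They all lay below in 4 members (11.4%; *Fga*, *Fgb*, *Mbl1* and *C6*), and so did 9.08% of all genes. With 3 mice against 3, an exact two-sided permutation test of a single gene cannot go below *p*=0.1.

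Most members sat close to no difference. The log2 fold change, knockout over wild type, was above 0 in 15 members and below 0 in 20, with a median of −0.033, against −0.017 over all tested genes. Every estimate lay within 1 log2 unit of 0, that is within a 2-fold difference. For 30 of the 35, the whole 95% interval lay within 2-fold in both directions. The interval excluded 0 for 8 members, the same 8 that had an unadjusted *p* under 0.05. Scaled by library sizes alone, 17 members turned from below to above 0, *Mbl1* (0.016), *C6* (0.17) and *C3* (0.24) among them, whereas the 3 fibrinogen genes stayed below 0 and every one of the 17 stayed below the all-gene median of that scaling.

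**Figure D1:**
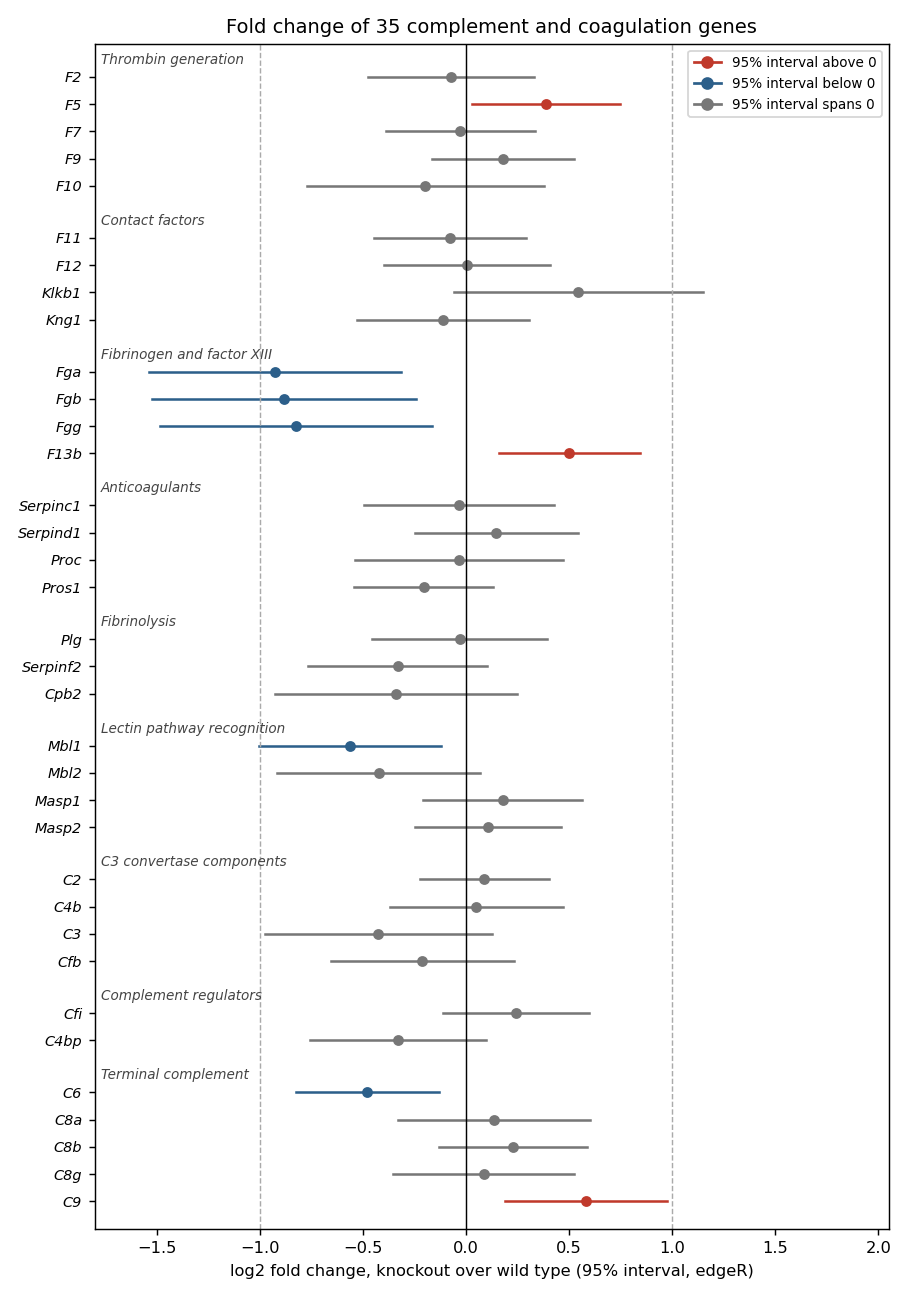
Fold change of each of the 35 members, knockout over wild type, on the log2 scale (dot, edgeR estimate; line, 95% interval; dashed lines, 2-fold), ordered by role. The 3 fibrinogen genes sit furthest to the left, between −0.93 and −0.82, and *C9*, *Klkb1* and *F13b* furthest to the right, between 0.50 and 0.58.

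All 3 fibrinogen chains had lower means in knockout liver, and per kilobase of transcript they had the highest mean levels of the 20 clotting and fibrinolysis members in both genotypes. *Fga* (NM_001111048; chromosome 3, 83026153 to 83033627 of mm10) stood at 1777, 2187 and 1869.6 CPM in the knockout libraries, against 2419, 3882 and 4784 CPM in the wild-type libraries. The groups did not overlap, although knockout library 7-3 and wild-type library 7-2 lay close together. The means were 1944 ± 215 CPM in knockout and 3695 ± 1194 CPM in wild-type liver (SD, *n*=3 each), which on the log2 scale is a fold change of −0.93 (standard error, SE, 0.27, adjusted *p*=0.197 by edgeR and 0.00536 by DESeq2). The adjusted *p* of *Fga* was the smallest of any member in the edgeR test.

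*Fgb* (NM_181849; chromosome 3, 83042246 to 83049863) stood at 2991, 3751 and 3000.1 CPM in knockout liver, against 3970, 6021 and 7980.0 CPM in wild-type liver. Here too the groups did not overlap, with wild-type library 8-3 the highest of the 6. Its log2 fold change was −0.88 (SE 0.29, adjusted *p*=0.233 by edgeR and 0.0111 by DESeq2). *Fgg* (NM_133862; chromosome 3, 83007724 to 83015056) had 2089.8, 2986 and 2011 CPM in knockout liver, against 2699, 4559 and 5281 CPM in wild-type liver. In this gene the groups overlapped, because knockout library 7-3 was above wild-type library 7-2. The log2 fold change of *Fgg* was −0.82 (SE 0.29, adjusted *p*=0.269 by edgeR and 0.0347 by DESeq2).

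The proportion of *Fgb* to *Fga* varied less between libraries than that of *Fgg* to *Fga*. The ratio of *Fgb* to *Fga* CPM was 1.60 to 1.72 in the knockout libraries and 1.55 to 1.67 in the wild-type libraries. That of *Fgg* to *Fga* was 1.08 to 1.37 in knockout and 1.10 to 1.17 in wild-type liver. Per kilobase of the canonical transcript, a scale on which genes can be set side by side, the mean level of *Fgg* was the highest of the 3 (1258 CPM per kilobase in knockout and 2226 in wild-type liver). *Fgb* had 852 in knockout and 1572 in wild-type liver, and *Fga* 752 in knockout and 1428 in wild-type liver. *Fgg* and *Fga* are 11096 bases apart and *Fga* and *Fgb* 8618 bases apart, and no other pair of neighbouring members was as far from 0 in both genes.

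*F13b* (NM_031164; chromosome 1, 139501547 to 139523758), the carrier subunit of factor XIII, differed from fibrinogen in direction. It stood at 102, 89.0 and 107 CPM in knockout liver, against 74.6, 63.7 and 72.5 CPM in wild-type liver. All knockout libraries were above all wild-type libraries, with a fold change of 0.50 on the log2 scale (SE 0.15, adjusted *p*=0.206 by edgeR and 0.0613 by DESeq2). *F13a1*, the catalytic subunit, which is not a hepatocyte product, was among the other clotting genes listed and was not called.

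**Figure D2:**
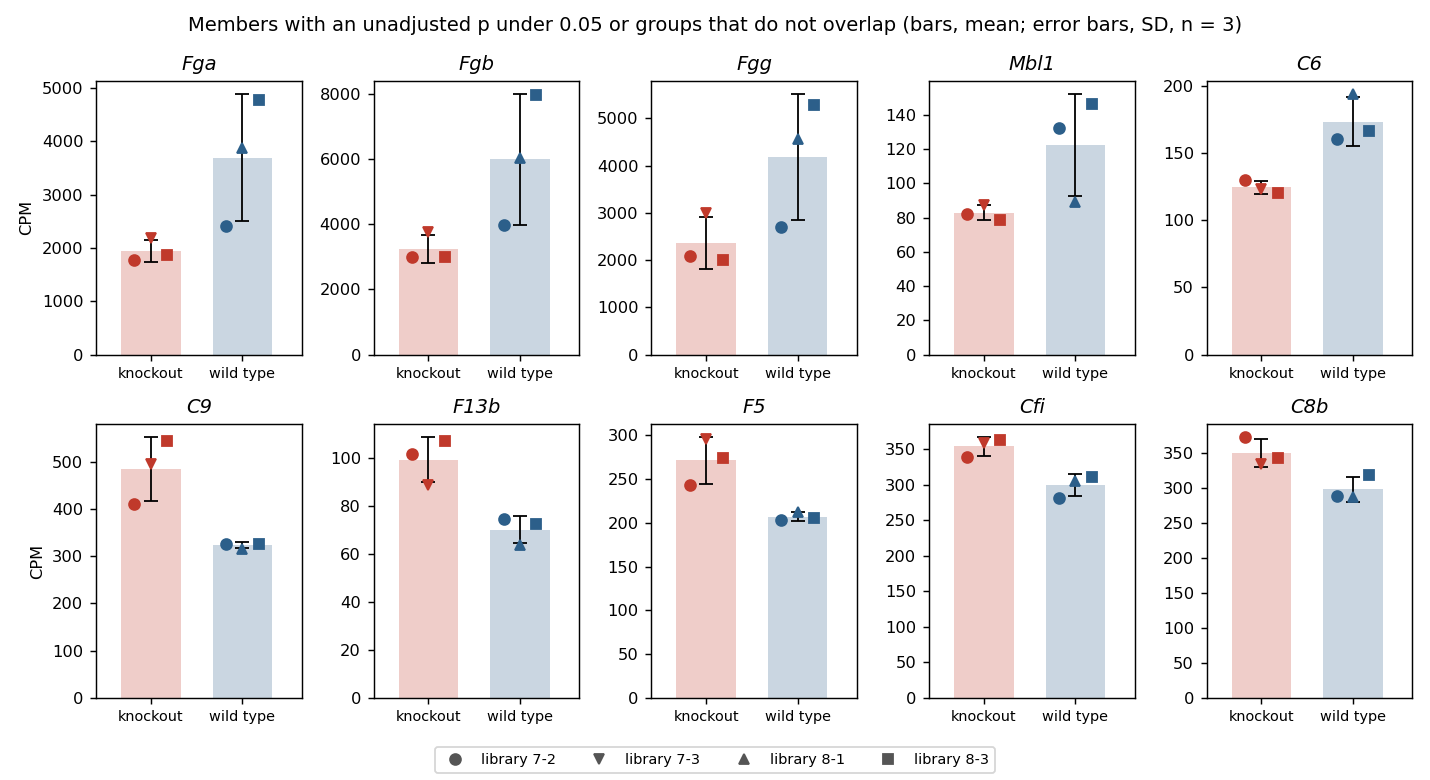
CPM in each library for the 10 members with an unadjusted *p* under 0.05 or with groups that did not overlap (symbols, libraries; bars, mean; error bars, SD, *n*=3; knockout on the left). In *Fga*, *Fgb* and *Fgg* wild-type library 7-2 stands near the knockout libraries while 8-1 and 8-3 are higher, whereas in *C9* the knockout libraries lie between 410.5 and 545 CPM and the wild-type libraries between 316 and 327 CPM.

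The summed acute phase genes were highest in the same pair of libraries as fibrinogen. Of 17 such genes, all tested, 0 were above 0 and 17 below, with a median log2 fold change of −1.30, with 0 called by edgeR, 13 lower at an unadjusted *p* under 0.05 and 3 lower by DESeq2 (*Hp*, *Lcn2* and *Lbp*). Their summed level was 6759, 9308 and 7139 CPM in knockout libraries 7-2, 7-3 and 8-3, against 7878, 17747 and 18189.7 CPM in wild-type libraries 7-2, 8-1 and 8-3. The summed level of the 3 fibrinogen genes was 6857, 8923 and 6881 CPM in knockout liver, against 9088, 14461 and 18045 CPM in wild-type liver. In both sums wild-type libraries 8-1 and 8-3 stood apart from the other 4. Serum amyloid A (*Saa1* and *Saa2*, which are near-identical and can share reads) divided the libraries in the same way, with 32.7, 374 and 160.4 CPM in the knockout libraries and 45.4, 2777 and 2570.1 CPM in the wild-type libraries. The part of the acute phase genes in the fibrinogen difference was not tested.

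**Figure D3:**
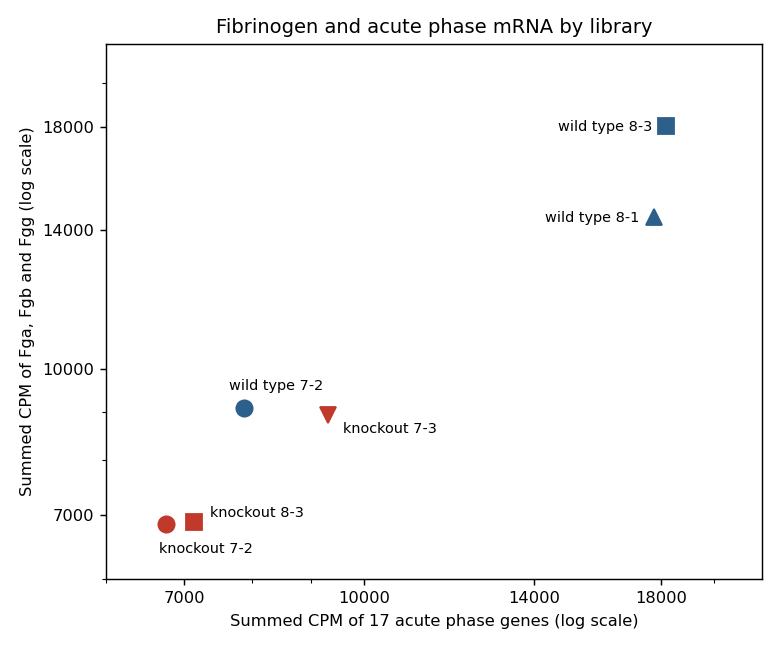
Summed CPM of *Fga*, *Fgb* and *Fgg* (vertical, log scale) against summed CPM of 17 acute phase genes (horizontal, log scale), 1 point for each library. The knockout libraries sit between 6857 and 8923 CPM of fibrinogen, wild-type library 7-2 sits just above them at 9088, and wild-type libraries 8-1 and 8-3 sit at 14461 and 18045.

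Those wild-type libraries share the leading number 8 of their labels with knockout library 8-3, and the meaning of that number is not given. Among the libraries with a leading 7, wild-type library 7-2 is the only one of its genotype, so a comparison within that number repeats the levels given above for that library and is not read further. With each library left out in turn, the log2 fold change of *Fga* ran between −1.15 (without wild-type library 7-2, adjusted *p*=0.0559 by edgeR) and −0.70 (without wild-type library 8-3, adjusted *p*=0.497). That of *Fgb* ran between −1.10 and −0.63 and that of *Fgg* between −1.06 and −0.62, at the same 2 libraries, and none of the 3 genes was called in any of these fits.

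Of the 5 genes that lead to thrombin, *F5* alone had an unadjusted *p* under 0.05. *F10*, the protease that makes thrombin, stood at 779, 776 and 626 CPM in knockout liver and 969, 532 and 999 CPM in wild-type liver. The wild-type libraries spanned the knockout ones, and the log2 fold change was −0.20 (95% interval −0.77 to 0.38, adjusted *p*=0.768 by edgeR). *F5*, the cofactor of factor Xa (NM_007976; chromosome 1, 164151835 to 164220277), stood at 243, 296 and 274 CPM in knockout liver, against 203, 213 and 206 CPM in wild-type liver. The groups did not overlap, and the wild-type libraries were within 10 CPM of each other. Its log2 fold change was 0.39 (SE 0.16, adjusted *p*=0.337 by edgeR and 0.176 by DESeq2). The log2 fold changes of prothrombin (*F2*), *F7*, which starts the cascade with tissue factor, and *F9*, the haemophilia B factor, were −0.07, −0.03 and 0.18, with 95% intervals that lay between −0.48 and 0.52.

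Among the contact factors, which start clotting on surfaces, kininogen (*Kng1*) is the source of bradykinin. It had 1311, 1372 and 1187 CPM in knockout liver and 1276, 1445 and 1460.2 CPM in wild-type liver, and the groups overlapped. Its log2 fold change was −0.11 (95% interval −0.53 to 0.31), and reads can be shared with its close copy *Kng2*. Plasma prekallikrein (*Klkb1*) had the widest interval of the contact factors, with a log2 fold change of 0.54 (−0.06 to 1.15, adjusted *p*=0.416 by edgeR). Its groups overlapped, at 80.5 to 112 CPM in knockout liver and 39.9 to 90.9 CPM in wild-type liver. *F11* and *F12* had log2 fold changes of −0.08 and 0.00. *F11* lies 4632 bases from *Klkb1* on chromosome 8, so the neighbours had unlike values.

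The anticoagulant and fibrinolytic genes held 0 members with an unadjusted *p* under 0.05. Antithrombin (*Serpinc1*), the main inhibitor of thrombin and factor Xa, had 1062, 1047 and 835 CPM in knockout liver and 1122, 825 and 1068 CPM in wild-type liver, with a log2 fold change of −0.03 (95% interval −0.50 to 0.43). Heparin cofactor II (*Serpind1*) had a log2 fold change of 0.15, protein C (*Proc*) −0.03 and protein S (*Pros1*), the cofactor of protein C, −0.20. Plasminogen (*Plg*), the precursor of plasmin, had the highest level per kilobase of the 3 fibrinolysis genes, and stood at 1735, 1663 and 1631 CPM in knockout liver and 1693, 1564 and 1881 CPM in wild-type liver. Its groups overlapped, and the log2 fold change was −0.03 (95% interval −0.46 to 0.39). Antiplasmin (*Serpinf2*) and *Cpb2*, a carboxypeptidase that protects fibrin, were at −0.33 (−0.76 to 0.10) and −0.34 (−0.93 to 0.25).

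The 6 vitamin K-dependent members (*F2*, *F7*, *F9*, *F10*, *Proc* and *Pros1*), whose proteins are carboxylated before secretion, had a median log2 fold change of −0.053, with 1 above 0 and 5 below. Of 5 genes of the vitamin K cycle, 0 were higher and 0 lower by edgeR, 0 and 0 by DESeq2 and 0 and 0 at an unadjusted *p* under 0.05, with a median of 0.046. Among those with the smallest *p* were *Vkorc1l1* (0.23) and *Vkorc1* (−0.25).

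**Figure D4:**
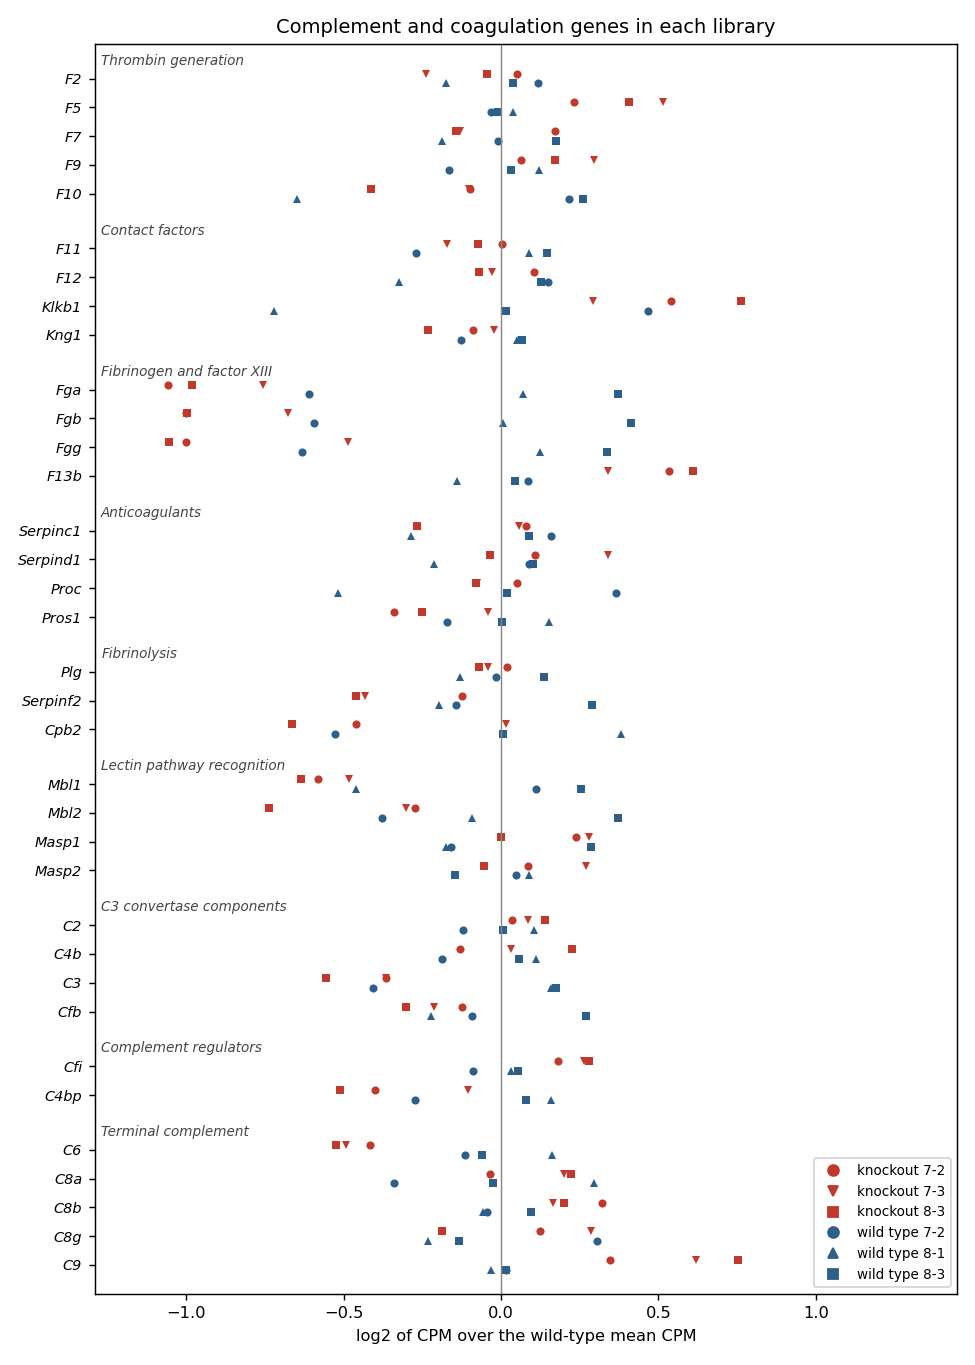
Level of the 35 members in each library, as log2 of CPM over the wild-type mean CPM (red, knockout; blue, wild type; symbols, libraries), ordered by role. The knockout symbols sit left of all wild-type symbols in *Fga*, *Fgb*, *Mbl1* and *C6* and right of them in *F5*, *F13b*, *Cfi*, *C8b* and *C9*, and the groups overlap in the other 26.

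Of the 4 lectin pathway members, *Mbl1* alone had an unadjusted *p* under 0.05. *Mbl1*, mannose-binding lectin A (NM_010775; chromosome 14, 41151456 to 41163904), stood at 81.9, 87.5 and 78.8 CPM in knockout liver, against 132, 89.0 and 146 CPM in wild-type liver. The groups did not overlap, but wild-type library 8-1 was only just above the highest knockout library. Its log2 fold change was −0.56 (SE 0.20, adjusted *p*=0.261 by edgeR and 0.114 by DESeq2), and 0.016 with library sizes alone. *Mbl2*, mannose-binding lectin C, had 108, 106 and 78.5 CPM in knockout liver and 101, 123 and 169 CPM in wild-type liver. Those groups overlapped (log2 fold change −0.42, 95% interval −0.92 to 0.07, adjusted *p*=0.437 by edgeR). The proteases *Masp1* and *Masp2*, which the lectins activate, had log2 fold changes of 0.18 and 0.11.

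*C3*, on which all complement pathways meet, had a mean of 1043 CPM per kilobase of transcript in knockout and 1400.2 CPM per kilobase in wild-type liver. In CPM it stood at 5608, 5613 and 4918 CPM in knockout liver, against 5453, 8063 and 8151 CPM in wild-type liver. As with fibrinogen, wild-type library 7-2 was at the level of the knockout libraries while 8-1 and 8-3 were higher. The log2 fold change was −0.42 (95% interval −0.98 to 0.13, adjusted *p*=0.480 by edgeR and 0.275 by DESeq2). Factor B (*Cfb*), the protease of the alternative pathway convertase, had a log2 fold change of −0.21. *C2* and *C4b*, the parts of the classical and lectin pathway convertase, had 0.09 and 0.05, with reads of *C4b* possibly shared with its close copy *C4a*. *Cfb* and *C2* lie 87 bases apart on chromosome 17.

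Of the soluble regulators, factor I (*Cfi*), a protease that inactivates C3b and C4b, had 339, 359.7 and 363 CPM in knockout liver, against 281, 306 and 311 CPM in wild-type liver. The groups did not overlap, but the log2 fold change of 0.24 had a 95% interval of −0.11 to 0.60 (adjusted *p*=0.531 by edgeR). *C4bp*, its cofactor on C4b, had a log2 fold change of −0.33 (−0.76 to 0.10).

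The terminal components, whose proteins form the membrane attack complex, held members on both sides. *C9* (NM_013485; chromosome 15, 6445346 to 6498825), the subunit that polymerises into the pore, stood at 410.5, 496 and 545 CPM in knockout liver, against 327, 316 and 326 CPM in wild-type liver. Every knockout library was above every wild-type library, and the wild-type values were nearly equal. The means were 484 ± 68.0 CPM in knockout and 323 ± 6.16 CPM in wild-type liver (SD, *n*=3 each), which on the log2 scale is a fold change of 0.58 (SE 0.18, adjusted *p*=0.204 by edgeR and 0.0218 by DESeq2). *C6* (NM_016704; chromosome 15, 4727067 to 4804045), which joins C5b at the start of assembly, stood at 129.9, 123 and 120.5 CPM in knockout liver, against 160.2, 194 and 166 CPM in wild-type liver. The groups did not overlap, in the other direction (log2 fold change −0.48, SE 0.16, adjusted *p*=0.235 by edgeR and 0.0693 by DESeq2). With library sizes alone, the log2 fold change of *C6* was 0.17.

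The 3 genes of the C8 protein, which binds before C9, were measured together as well. *C8b* had 373, 334 and 342 CPM in knockout liver, against 289, 287 and 319 CPM in wild-type liver, without overlap. The log2 value of 0.23 had a 95% interval of −0.13 to 0.59. *C8a* had 537, 632 and 641 CPM in knockout liver and 434, 674 and 540.1 CPM in wild-type liver, and the groups overlapped. The log2 fold changes of *C8a* and *C8g* were 0.13 and 0.09. Per kilobase of the canonical transcript, the mean level was 165 CPM in knockout and 150.4 CPM in wild-type liver for *C8a*. It was 114 in knockout and 97.0 in wild-type liver for *C8b*, and 95.3 in knockout and 89.8 in wild-type liver for *C8g*.

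The wild-type libraries differed more among themselves than the knockout libraries did. The highest CPM over the lowest within a genotype had a median of 1.22 in knockout and 1.35 in wild-type liver over the members. Over all tested genes it was 1.35 in knockout and 1.41 in wild-type liver. The range was wider among wild-type libraries in 27 of the 35 members (77.1%) and in 56.5% of all tested genes. Knockout library 8-3 was the lowest of its genotype in 20 members, and wild-type library 8-3 was the highest of its genotype in 17. Together the members took 2.87% to 3.35% of the raw counts in knockout libraries and 2.10% to 3.21% in wild-type libraries. Those totals include the major urinary protein genes, whose share was larger in wild-type libraries. With TMM factors, the summed level of the members was 22735 to 26242 CPM in knockout and 25968 to 38748 CPM in wild-type liver. Without the 3 fibrinogen genes, their summed level was 15855 to 17319 CPM in knockout and 16879.9 to 20703 CPM in wild-type liver.

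Beyond the members, 71 further genes of clotting, fibrinolysis and complement were listed, of which 65 were tested. By edgeR 0 were higher and 0 lower, by DESeq2 2 and 2, and at an unadjusted *p* under 0.05 there were 6 and 5. Over all genes, DESeq2 called 1.38% higher and 1.7% lower, and an unadjusted *p* under 0.05 was reached by 6.7% and 6.76%. The counts in the lists that follow stand beside the same shares. The median log2 fold change of the 65 genes was 0.042. *S100a10*, which with annexin A2 (*Anxa2*) binds plasminogen at the cell surface, stood at 46.1, 46.9 and 33.3 CPM in knockout liver, against 71.0, 109 and 97.9 CPM in wild-type liver. All knockout libraries were below all wild-type libraries (log2 fold change −1.14, SE 0.21, adjusted *p*=0.0594 by edgeR and 2.13e-05 by DESeq2), and without the filter on low counts edgeR called it. *Anxa2* had −0.48. The fibrinogen-like hepatokine *Fgl1* had 147, 313 and 243 CPM in knockout liver and 172, 673 and 579 CPM in wild-type liver, and the groups overlapped. Its log2 fold change was −1.02 (SE 0.45, adjusted *p*=0.363 by edgeR and 0.412 by DESeq2). In that fibrinolysis list of 10 genes, 0 above and 3 below wild type reached an unadjusted *p* under 0.05.

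Of 18 other clotting and anticoagulation genes tested, an unadjusted *p* under 0.05 was reached by 0 above and 2 below wild type. *Serpina10*, the inhibitor of factor Xa that acts with protein Z, stood at 67.4, 86.3 and 72.4 CPM in knockout liver, against 88.6, 149.6 and 185 CPM in wild-type liver, with the same order of wild-type libraries as *Fga*. Its log2 fold change was −0.91 (SE 0.25, adjusted *p*=0.172 by edgeR and 0.0123 by DESeq2). *Gas6*, a ligand of TAM receptors, had −0.79, and *F3*, tissue factor, had 0.52. *A2m* was below the filter.

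The other soluble complement genes, 22 tested of 25, held 6 above and 0 below wild type with an unadjusted *p* under 0.05, and had a median log2 fold change of 0.14. Collectin *Colec10* stood at 7.05, 5.02 and 6.74 CPM in knockout liver, against 3.17, 3.82 and 2.07 CPM in wild-type liver (log2 fold change 1.05, SE 0.24, adjusted *p*=0.120 by edgeR and 0.00533 by DESeq2). *Colec11*, its partner in the lectin pathway, had 7.92, 7.18 and 8.98 CPM in knockout liver, against 6.11, 3.44 and 3.25 CPM in wild-type liver (log2 fold change 0.91, SE 0.25, adjusted *p*=0.163 by edgeR and 0.0241 by DESeq2). In neither gene did the groups overlap. *C1s2*, a close copy of the C1 protease gene *C1s1*, had a log2 fold change of 0.50. *Colec11* also marks stellate cells and is itself among the 10 stellate cell markers, which had a median of 0.48, with 7 above 0 and 3 below. Of these 10, 0 were called by edgeR, 5 were higher before adjustment and 3 higher by DESeq2, with *Colec11* counted in the 5 and in the 3. The summed level of the stellate markers was 101.9 to 104.4 CPM in knockout and 63.3 to 79.1 CPM in wild-type liver. The 12 sinusoidal endothelial markers were all above 0, with a median of 0.30, 0 called by edgeR or DESeq2, 2 higher before adjustment, and a summed level of 115.4 to 119 CPM in knockout and 94.6 to 100.3 CPM in wild-type liver. No stellate or sinusoidal marker was at 0. Other lists leaned the other way. The 12 Kupffer cell and macrophage markers, *C1qa*, *C1qb* and *C1qc* among them, had a median of −0.22, with 2 above 0 and 10 below. The 5 cholangiocyte markers tested had a median of −0.49, with 1 above 0 and 4 below. In both lists 0 were called by edgeR or DESeq2. Before adjustment, 2 Kupffer cell and macrophage markers and 1 cholangiocyte marker were lower at a *p* under 0.05, and 0 were higher. The part of these cell types in the results was not tested.

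Complement receptors and membrane regulators, 10 tested, summed to 77.3 to 90.1 CPM in knockout and 77.4 to 86.5 CPM in wild-type liver. None was called by edgeR or DESeq2, 0 had an unadjusted *p* under 0.05, and the median log2 fold change was −0.018. Those with the smallest *p* were *Cd55* (0.39), *C5ar1* (−0.30) and *C5ar2* (−0.17). Among 11 transcription factors that act on these genes in hepatocytes, 0 were higher and 0 lower by edgeR, by DESeq2 or at an unadjusted *p* under 0.05, with 10 of 11 above 0 and a median of 0.15. The smallest *p* values belonged to *Onecut1* (1.01), *Nr1h4* (0.28) and *Cebpa* (0.42). The value of *Onecut1* came from a single library, since it stood at 11.1, 2.85 and 2.75 CPM in knockout libraries 7-2, 7-3 and 8-3 and at 2.44, 3.46 and 2.38 CPM in wild-type liver. Of 6 genes that carry or restrain the acute phase signal in hepatocytes, 0 were called by edgeR or DESeq2 and 0 had an unadjusted *p* under 0.05. *Socs3*, which restrains that signal, was at −0.78, *Il6st* at 0.32 and *Cebpb* at −0.34. *Socs3* stood at 1.82, 6.52 and 3.84 CPM in knockout liver and 9.49, 6.13 and 5.20 CPM in wild-type liver, and the groups overlapped. The part of these 6 genes in the fibrinogen difference was not tested.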

How the data were processed

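Liver mRNA of 3 knockout and 3 wild-type mice was measured with a directional library kit. The authors deposited raw counts per gene, made from unique and multiple alignments with the coverage tool of Bedtools. The submitters' processing notes name TopHat and mm10. The aligner version, the annotation and the strand setting of the counting were not given in the sources used here. Since multiple alignments were counted, close copies can share reads. The deposited counts are whole numbers with different totals, so they come before the quantile normalisation of the methods, and no 2 libraries were copies of each other (smallest chi-square per degree of freedom 188).

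The comparison of knockout with wild type used the quasi-likelihood test of edgeR 4.0.16 (with limma 3.58.1 under R 4.3.3) over all 6 libraries with TMM factors, no further term and filterByExpr at its defaults (minimum count 10, minimum total 15). Benjamini-Hochberg adjustment ran over the 14076 genes tested, and genes under 0.05 were called. The biological coefficient of variation was 23.9%. Depth was 60619938 to 133384586 counts per library, and reads carry no molecular identifiers. Lengths per kilobase are those of GENCODE canonical transcripts. The test was checked on simulated counts.

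CPM in each library are given for members with an unadjusted *p* under 0.05 or without overlap, for the member with the highest mean of each role group and for fibrinogen. Up to 3 genes with the smallest *p* are named from each further list, and *Socs3* in each library, *A2m* and *F13a1* were added after their values were seen. A gene that this rule takes is not reported here. The members and lists were chosen with earlier results of these data known. Alternatives tried were upper-quartile and RLE factors, library sizes alone, DESeq2 1.42.0, scaling without *Mup* genes, quantile-normalised log2(count + 1) values with limma, limma-voom, no filter, a minimum mean of 5 in log2 normalised counts, leaving out 1 library at a time and a replicate block. *Cfhr3*, *Tf* and *Ly6g* were not analysed here.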

Additional observations from a re-analysis of the deposited data

How the results depend on the processing

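With 3 mice per genotype, the 95% interval excluded 0 in 8 of 35 members. The count of members called, 0 higher and 0 lower, was the same under every alternative except 2. DESeq2 called 1 higher and 3 lower. Library sizes alone, which shift the median of all genes to 0.61, called 4 higher (*F5*, *Klkb1*, *F13b* and *C9*) and turned the sign of 17 members, to 0.54 (*F2*), 0.60 (*F7*), 0.37 (*F10*), 0.58 (*F11*), 0.52 (*Kng1*), 0.56 (*Serpinc1*), 0.54 (*Proc*), 0.43 (*Pros1*), 0.59 (*Plg*), 0.30 (*Serpinf2*), 0.33 (*Cpb2*), 0.016 (*Mbl1*), 0.22 (*Mbl2*), 0.24 (*C3*), 0.41 (*Cfb*), 0.31 (*C4bp*) and 0.17 (*C6*), all of them below that median. *Fga*, *Fgb* and *Fgg* stayed below 0 there (−0.27, −0.24 and −0.18). Other changes of sign were in members close to 0. Quantile normalisation gave 0.018 (*F2*), 0.027 (*Kng1*), 0.10 (*Plg*), 0.11 (*Proc*) and 0.075 (*Serpinc1*), limma-voom 0.0049 (*Proc*), and upper-quartile factors −0.0014 (*F12*).

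Other pathway genes called were 2 higher and 2 lower by DESeq2, 13 higher with library sizes alone, and 1 lower without the filter (*S100a10*). With each library left out in turn they were 0 to 1 higher and 0 to 3 lower, and those without wild-type library 7-2 were *Colec11*, *A2m*, *S100a10* and *Serpina10*. Over all genes, 194 were higher and 239 lower by DESeq2, 2936 and 88 with library sizes alone, 4 and 27 with quantile normalisation, 6 and 44 with limma-voom, and 23 and 73 without the filter. Leaving out 1 library gave 3 to 18 higher and 21 to 69 lower over all genes, and 0 members in every case. The adjusted *p* of *Fga* was 0.0559 without wild-type library 7-2 and 0.497 without wild-type library 8-3. The sign changed with a library left out in *F2* (−0.14 to 0.0037), *F7* (−0.14 to 0.065), *F12* (−0.13 to 0.089), *Serpinc1* (−0.15 to 0.068), *Proc* (−0.23 to 0.20), *Plg* (−0.085 to 0.038), *C4b* (−0.048 to 0.13), *C8a* (−0.0076 to 0.32) and *C8g* (−0.024 to 0.27).

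Only 2 label numbers occur in both genotypes, and deviations of same-numbered libraries correlated at 0.044 (7-2) and −0.016 (8-3). The libraries were not taken as pairs, although 2 correlations cannot show whether same-numbered libraries had an origin in common. A replicate block on the full number called 0 members, 15 genes higher and 34 lower, and gave −0.12 (*C8g*), 0.028 (*F11*), −0.12 (*F12*) and −0.058 (*Serpind1*). Numbers 7-3 and 8-1 each occur in a single genotype, so in that block only libraries 7-2 and 8-3 bear on the fold change. A replicate block on the leading number called 0 members, 6 genes higher and 33 lower, gave −0.053 (*C8g*) and −0.049 (*F12*), and left *Fga*, *Fgb* and *Fgg* at −0.75, −0.73 and −0.69. The cause of these shifts was not tested.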
